A study of Homo sapiens with 18 samples.

Results

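DNA methylation was examined at the promoters of 10 genes of epithelial and mesenchymal identity, CDH1, CDH2, CDH3, CDH13, ESRP1, ESRP2, GRHL2, OVOL1, ZEB1 and ZEB2, out of 20162 protein-coding genes in the annotation. The genes were chosen by name, and for each one the window from 1000 bp upstream to 1000 bp downstream of its outermost annotated 5′ end was read, 2001 bases on GRCh37. The series compared kits that capture methylated DNA with a methyl-CpG binding domain (MBD), using untreated DNA of 3 established human cancer cell lines. HCT15 is labelled a colorectal carcinoma line, and DU145 and PC3 are labelled prostate cancer lines. Each of 5 kits (MethylMagnet, MethylCollector, MethylCollector Ultra, MethylCap and MethylMiner) was applied once to each line, giving 15 MBD-seq libraries, and each line also has 1 library of reduced representation bisulfite sequencing (RRBS). The lines differ in tissue, donor and culture history at once, so a difference between them cannot be told apart from any of these, and RNA was not measured.

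Epithelial cells hold together through E-cadherin, the product of CDH1, while mesenchymal cells often carry N-cadherin, the product of CDH2. The repressors ZEB1 and ZEB2 bind short E-box motifs in epithelial genes, and GRHL2 and OVOL1 are transcription factors that keep the epithelial state. ESRP1 and ESRP2 are RNA-binding proteins that set epithelial splicing. Methylation of CpGs in a promoter usually goes with a silent gene, and cancer lines differ in which of these promoters carry it.

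The 3 stretches printed here are those with the clearest differences between the lines, chosen after the single CpGs had been seen. They are read 5′ to 3′ on the strand of the gene from the GRCh37 sequence, and capitals mark the CpGs with at least 10 RRBS reads in all 3 lines. Positions are counted from the outermost 5′ end, with negative values upstream. The first is chr18:25758063-25758144 (minus strand, -234 to -153 bp), upstream of CDH2, with 14 of its 15 CpGs measured. The second is chr18:25757714-25757793 (minus strand, 117 to 196 bp), in the first intron of the outermost CDH2 transcript, with 4 of 14 CpGs measured (median 20 reads in HCT15, 182 in DU145 and 136 in PC3). The third is chr10:31608316-31608419 (plus strand, 892 to 995 bp), in the first intron of the canonical ZEB1 transcript, with 12 of 12 CpGs measured.
CDH2, upstream: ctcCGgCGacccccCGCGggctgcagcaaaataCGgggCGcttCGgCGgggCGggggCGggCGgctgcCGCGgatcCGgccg
CDH2, first intron: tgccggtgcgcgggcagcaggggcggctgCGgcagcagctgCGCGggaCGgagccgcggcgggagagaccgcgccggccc
ZEB1, first intron: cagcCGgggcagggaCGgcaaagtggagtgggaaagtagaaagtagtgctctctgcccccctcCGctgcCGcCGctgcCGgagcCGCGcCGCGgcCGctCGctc

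The CpGs in capitals upstream of CDH2 were methylated on average in 96.2% of reads in HCT15, 73.7% in DU145 and 8.04% in PC3. Those in the CDH2 intron were at 97.5% in HCT15, 87.9% in DU145 and 0.738% in PC3. In the ZEB1 intron DU145 stood beside PC3, with 60.2% in HCT15, 9.28% in DU145 and 8.12% in PC3. CDH2 was thus methylated in HCT15 and DU145 and nearly free of methylation in PC3, and the ZEB1 stretch was methylated in HCT15 only among the 3 lines.

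The levels depend on a class of CpGs that stood apart in all 3 libraries. CpGs inside CCGG, the site of MspI, had a median methylation of 59.1% in HCT15, 57.4% in DU145 and 56.7% in PC3 over the promoter windows of all genes. Those inside TCGA, the site of TaqI, had medians of 63.2%, 63.6% and 61.9%. All other CpGs of the same windows had medians of 0.0%, 0.752% and 0.0%. The enzymes used for RRBS are not given in the sources used here, and the cause of this gap was not tested. In CDH2 of PC3, the 9 CpGs in such sites lay between 27.0% and 71.8% while the other 50 CpGs lay between 0.0% and 2.56%. In ESRP1 of HCT15 the 14 site CpGs averaged 45.5% and the other 44 CpGs 0.644%. Levels are therefore given over all CpGs and again without the CpGs in CCGG and TCGA, a choice made after seeing the data.

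**Figure D1:**
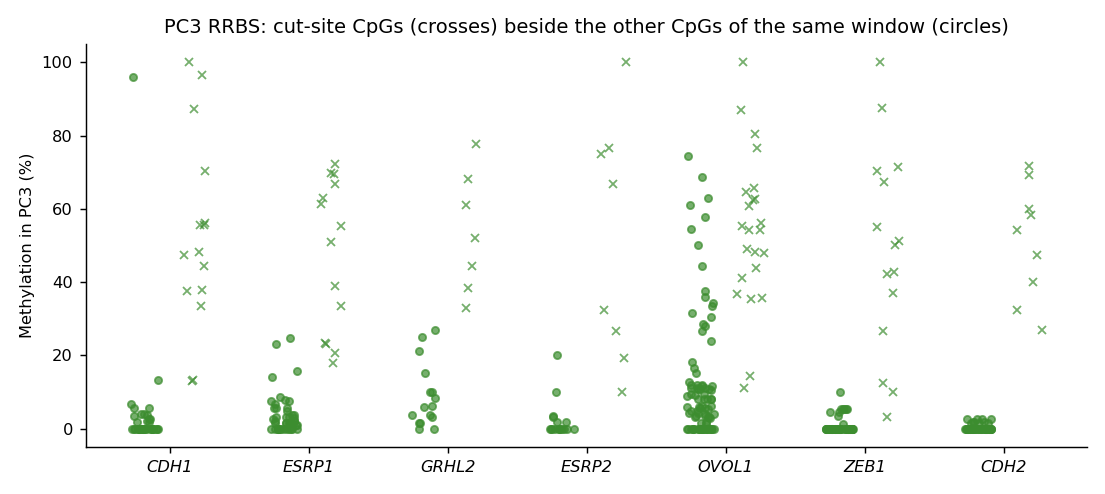
Methylation of single CpGs in PC3 (vertical axis, percent of reads) for 7 of the genes (horizontal axis), with CpGs inside CCGG or TCGA as crosses and other CpGs of the same window as circles. In CDH2 the crosses spread from 27.0% to 71.8% and the circles stay at or below 2.56%.

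The 10 windows held between 39 (ZEB2) and 225 (OVOL1) CpGs, against a median of 90 over all genes. RRBS measured 20 to 116 of them in HCT15 for 8 of the genes, 8 for CDH3 and 0 for ZEB2. CDH2 with 193 CpGs and OVOL1 stood in the top of the distribution, at percentiles 96.1 and 98.7, and CDH3 with 44 CpGs and ZEB2 stood at percentiles 25.8 and 23.6. From 250 bp upstream to 50 bp downstream, the E-box letters CACCTG or its reverse complement CAGGTG occurred in 4 of 10 members, 3 times in CDH1 and once in each of ESRP1, GRHL2 and ZEB1. The same window held them in 21.6% of all genes.

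A promoter was called high at a mean of at least 50% over its CpGs and low at no more than 10%. In HCT15, 3 of the 9 measured genes were high (CDH2, CDH3 and CDH13), against 26.0% of all measured promoters, and 0 were low against 13.6%. In DU145 the same 3 genes were high, against 18.1% of all, and 0 were low against 11.7%. In PC3 only CDH3 was high, against 16.7% of all, and only CDH2 was low, against 12.7%. Without the site CpGs, 4 of 8 measured genes were low in HCT15, 5 of 9 in DU145 and 6 of 8 in PC3, while 64.3%, 67.7% and 68.9% of all promoters were low on that reading. On that reading 2 of 8, 3 of 9 and 0 of 8 members were high, against 21.6%, 13.1% and 12.4% of all promoters. Counts over 8 or 9 genes are not read as a result about the members as a group.

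**Figure D2:**
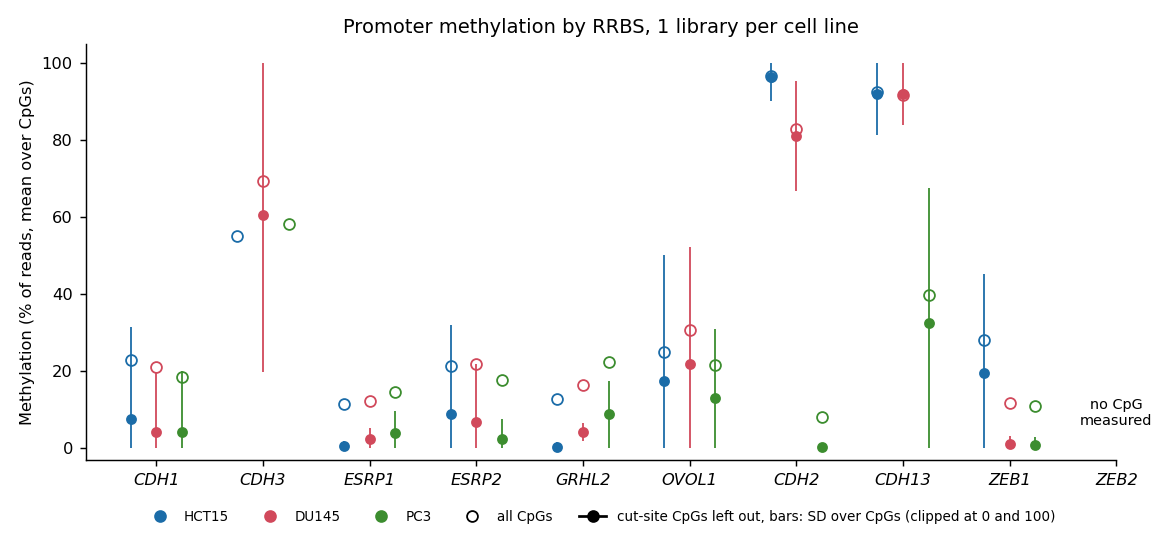
Mean promoter methylation (vertical axis, percent of reads) of the 10 genes (horizontal axis) in 1 RRBS library per cell line, over all CpGs (open circles) and without CpGs in CCGG or TCGA (filled circles, with the SD over CpGs). CDH2 and CDH13 are high in HCT15 and DU145 and lower in PC3, at 8.13% and 39.9% over all CpGs.

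Between lines, a promoter was called different at 25 percentage points or more over the CpGs measured in both. CDH2 and CDH13 were the members higher in HCT15 than in PC3, 2 of 9, where 12.5% of all promoters were called, and 0 were higher in PC3, where 1.61% were called. The same pair was higher in DU145 than in PC3, where 4.4% of all promoters were called, and 0 members were higher in PC3, where 3.25% were called. Between HCT15 and DU145, 0 of 9 members were called in either direction, against 12.3% of all promoters higher in HCT15 and 1.56% higher in DU145. CDH2 and CDH13 were also the members called without site CpGs, 2 of 8 higher in HCT15 than in PC3 (13.8% of all promoters) and 2 of 8 higher in DU145 than in PC3 (5.05% of all). On that reading 0 of 8 were higher in PC3 than in HCT15 or DU145 (1.75% and 3.74% of all), and 0 of 8 differed between HCT15 and DU145 (13.7% and 1.57% of all). With 1 RRBS library per line there is no test of these differences, and the SDs given are over CpGs.

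Single CpGs were also compared between libraries by two-sided Fisher's exact tests on methylated and unmethylated reads, with Benjamini-Hochberg adjustment over all promoter CpGs of the pair and a threshold of 0.05. These tests cover counting error between 2 libraries and not the cell lines as conditions, and CpGs on the same fragments share reads. Within the windows, the stretches and blocks described below were bounded after the single CpGs had been seen, apart from bins of 500 bp. Counts of called CpGs inside them are descriptive only. Of 402 member CpGs compared between HCT15 and PC3, 87 were higher in HCT15 (21.6%, against 12.9% of all promoter CpGs) and 22 higher in PC3 (5.47%, against 2.78%). Between DU145 and PC3, 108 of 404 were higher in DU145 (26.7%, against 6.34%) and 10 higher in PC3 (2.48%, against 5.4%). Between HCT15 and DU145, 24 of 376 were higher in HCT15 (6.38%, against 13.2%) and 24 higher in DU145 (against 2.85%). CDH2 and CDH13 together held 86 of the 108 CpGs higher in DU145 than PC3.

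Among the cadherins, CDH2, which encodes N-cadherin, showed the widest difference of the 10 genes. Its 5′ end lies at chr18:25757910 on the minus strand (ENSG00000170558.10_13). Mean methylation was 96.7% in HCT15 (SD 5.86 over 39 CpGs, median 18 reads), 83.0% in DU145 (SD 13.9 over 59 CpGs, median 72 reads) and 8.13% in PC3 (SD 19.3 over 59 CpGs, median 48 reads). Over shared CpGs, HCT15 exceeded PC3 by 89.7 points (SD 17.8, 39 CpGs) and DU145 exceeded PC3 by 74.8 points (SD 20.4, 59 CpGs). All 39 shared CpGs were higher in HCT15 than in PC3 and 58 of 59 higher in DU145 than in PC3 by the Fisher test.

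The difference in CDH2 ran through the whole measured window. Without site CpGs, the 12 CpGs from -227 to -163 bp averaged 96.1% in HCT15 (88.2% and above), 70.6% in DU145 (30.6% to 94.4%) and 0.0% in PC3. From 126 to 479 bp the means were 95.04% over 13 CpGs in HCT15, 82.2% over 29 CpGs in DU145 and 0.504% over the same 29 CpGs in PC3. From 938 to 1000 bp, 9 CpGs averaged 98.6%, 91.7% and 0.565%. By these means HCT15 and DU145 differed least at that far end and most upstream. The Fisher test called 4 of 12 CpGs higher in HCT15 upstream, 0 of 13 in the middle stretch and 2 of 9 at the far end. The median reads of HCT15 were 17, 13 and 24 there, so these calls depend on depth as well. In all, 6 of 39 CpGs of CDH2 were higher in HCT15 than in DU145, and the mean difference was 14.1 points (SD 14.3).

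CDH13 encodes T-cadherin, a cadherin held to the membrane by a lipid anchor and often found methylated in carcinomas. Its 5′ end lies at chr16:82660570 on the plus strand (ENSG00000140945.17_10). Mean methylation was 92.6% for the 32 CpGs of HCT15 (SD 10.3), 91.8% for the 38 CpGs of DU145 (SD 8.11) and 39.9% for those 38 CpGs in PC3 (SD 35.2). Over shared CpGs, PC3 was lower than HCT15 by a mean of 49.0 points (SD 37.8) and lower than DU145 by 51.9 points (SD 34.0).

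PC3 was not low across the whole CDH13 window. Without site CpGs, the 6 CpGs from 110 to 157 bp averaged 89.1% in PC3, beside 92.4% in HCT15 and 99.0% in DU145, and 0 of the 6 differed between HCT15 and PC3 by the Fisher test. From 555 to 951 bp the means were 15.4% in PC3 (SD 17.1, 22 CpGs), 92.9% in HCT15 (SD 11.3, 18 CpGs) and 90.5% in DU145 (SD 8.15, 22 CpGs). All 18 shared CpGs of that stretch were higher in HCT15 than in PC3 and all 22 higher in DU145. A window of 500 bp either side holds only the first group, and there the 3 lines averaged 94.3%, 97.4% and 86.4% over 8 CpGs, so CDH13 was no longer called different.

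**Figure D3:**
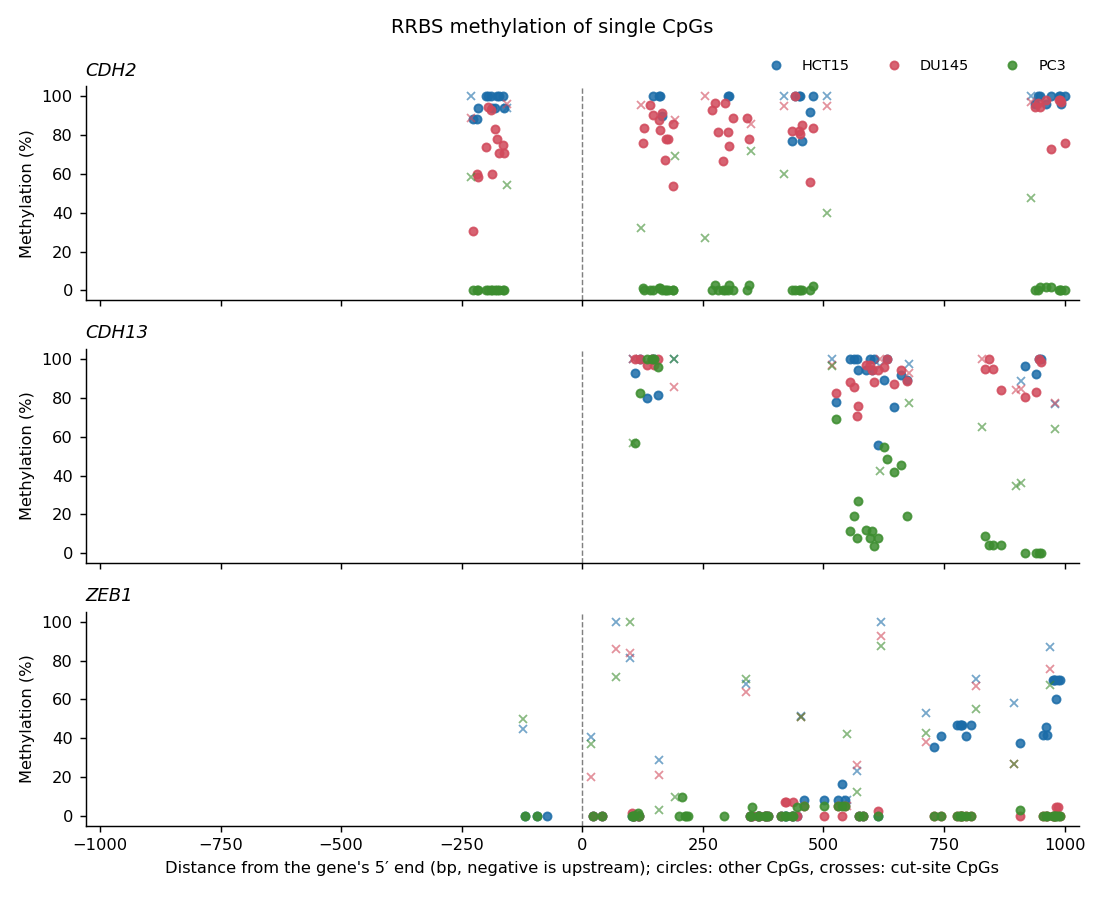
Methylation of single CpGs (vertical axis, percent of reads) by distance from the 5′ end (horizontal axis, bp) in CDH2, CDH13 and ZEB1, with 1 colour per cell line and crosses for CpGs in CCGG or TCGA. Outside CCGG and TCGA, PC3 is at or below 2.56% throughout CDH2, falls from 89.1% to 15.4% between the groups of CDH13, and ZEB1 rises in HCT15 beyond 730 bp.

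CDH1, the gene of E-cadherin at chr16:68771195 on the plus strand (ENSG00000039068.20_12), had means of 22.9%, 21.2% and 18.6% in HCT15, DU145 and PC3, and 7.59%, 4.39% and 4.25% without site CpGs. The methylation that remained lay far upstream. From -989 to -783 bp the means over all CpGs were 91.4% over 6 CpGs in HCT15, 97.2% over 3 CpGs in DU145 and 97.5% over 3 CpGs in PC3. Without site CpGs this stretch held only 3 CpGs in HCT15 (mean 88.3%), 1 in DU145 (95.6%) and 1 in PC3 (96.0%). From -214 to 967 bp, without site CpGs, the means were 0.604% (SD 1.35, 35 CpGs), 1.99% (SD 2.61, 38 CpGs) and 1.63% (SD 2.83, 35 CpGs). In each pair of lines 51 CpGs of CDH1 were compared, and the Fisher test called 1 of them, higher in DU145 than in HCT15.

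CDH3, the gene of P-cadherin, lies next to CDH1 on chromosome 16, and its outermost 5′ end (chr16:68670092, ENSG00000062038.15_11) is 9121 bp upstream of the canonical one. Around the outermost end, the mean was highest in DU145 (69.5%, 13 CpGs), followed by PC3 (58.3%, 9 CpGs) and HCT15 (55.2%, 8 CpGs). Around the canonical end at 68679213 the means were 12.2% over 102 CpGs, 12.2% over 88 CpGs and 13.3% over 95 CpGs, and without site CpGs 1.13%, 1.09% and 2.34%. CDH3 therefore counted as high only for the CpG-poor outer start, and in HCT15 and PC3 only with the site CpGs included. Of its CpGs 0 passed the Fisher test between any pair of lines.

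The genes of the epithelial splicing regulators came to no more than 10% once the site CpGs were left out. ESRP1 (chr8:95653302, plus strand) had means of 11.5%, 12.3% and 14.5% in HCT15, DU145 and PC3, and 0.644%, 2.40% and 4.03% without site CpGs. From 624 to 985 bp its 22 CpGs averaged 6.53% in PC3, 2.97% in DU145 and 0.929% in HCT15, and single CpGs of PC3 reached 24.6%. By the Fisher test 3 of 58 CpGs were higher in PC3 than in HCT15 and 3 of 53 higher in PC3 than in DU145.

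ESRP2 (chr16:68272005, minus strand, ENSG00000103067.14_15) had means of 21.3%, 22.02% and 17.9%, and 8.93%, 6.90% and 2.34% without site CpGs. From -106 to 959 bp the latter CpGs averaged 6.90% in DU145 and 2.34% in PC3 (17 CpGs each), and 1.45% over 36 CpGs in HCT15. Further upstream, from -530 to -447 bp, 4 CpGs of HCT15 averaged 76.3%, and no CpG there reached 10 reads in the other lines. The outermost ESRP2 end is 1975 bp upstream of the canonical one, around which the means without site CpGs were 0.501%, 0.818% and 0.861%.

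GRHL2, which encodes a grainyhead factor that activates CDH1 (chr8:102504667, plus strand), had means of 12.9%, 16.5% and 22.5%. Without site CpGs, its 15 shared CpGs from 90 to 920 bp averaged 9.49% in PC3 (0.0% to 26.9%), 4.22% in DU145 (at most 7.81%) and 0.470% in HCT15 (at most 4.55%). The Fisher test called 5 of 20 CpGs higher in PC3 than in HCT15 and 2 of 20 higher in PC3 than in DU145. The 5′ ends of 2 long noncoding RNAs lie 60 bp downstream and 137 bp upstream of that of GRHL2 on the other strand, so the window is not that of GRHL2 alone.

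OVOL1 encodes a zinc finger factor that represses mesenchymal genes (chr11:65554534, plus strand, ENSG00000172818.10_7). Its window had the most measured CpGs and differed between lines in blocks, whose bounds were set after the CpGs had been seen. Over the whole window its means were 30.7% over 89 CpGs in DU145, 25.1% over 116 CpGs in HCT15 and 21.8% over 110 CpGs in PC3, no pair of which was called different. Without site CpGs, the block from -876 to -676 bp was methylated at 94.3% in DU145 (8 CpGs), 88.0% in HCT15 (15 CpGs) and 48.1% in PC3 (SD 19.0, 8 CpGs), and all 8 shared CpGs were higher in DU145 than in PC3. From -431 to -323 bp, 11 CpGs averaged 29.5% in DU145 (SD 16.8), beside 3.13% in HCT15 and 1.90% in PC3, and 10 of 11 were higher in DU145 than in each of the others. From 92 to 500 bp the order changed, with 17.9% in PC3 (SD 16.0, 31 CpGs), 6.71% in DU145 and 2.57% in HCT15. There 13 of 31 CpGs were higher in PC3 than in HCT15 and 5 of 31 higher in PC3 than in DU145.

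**Figure D4:**
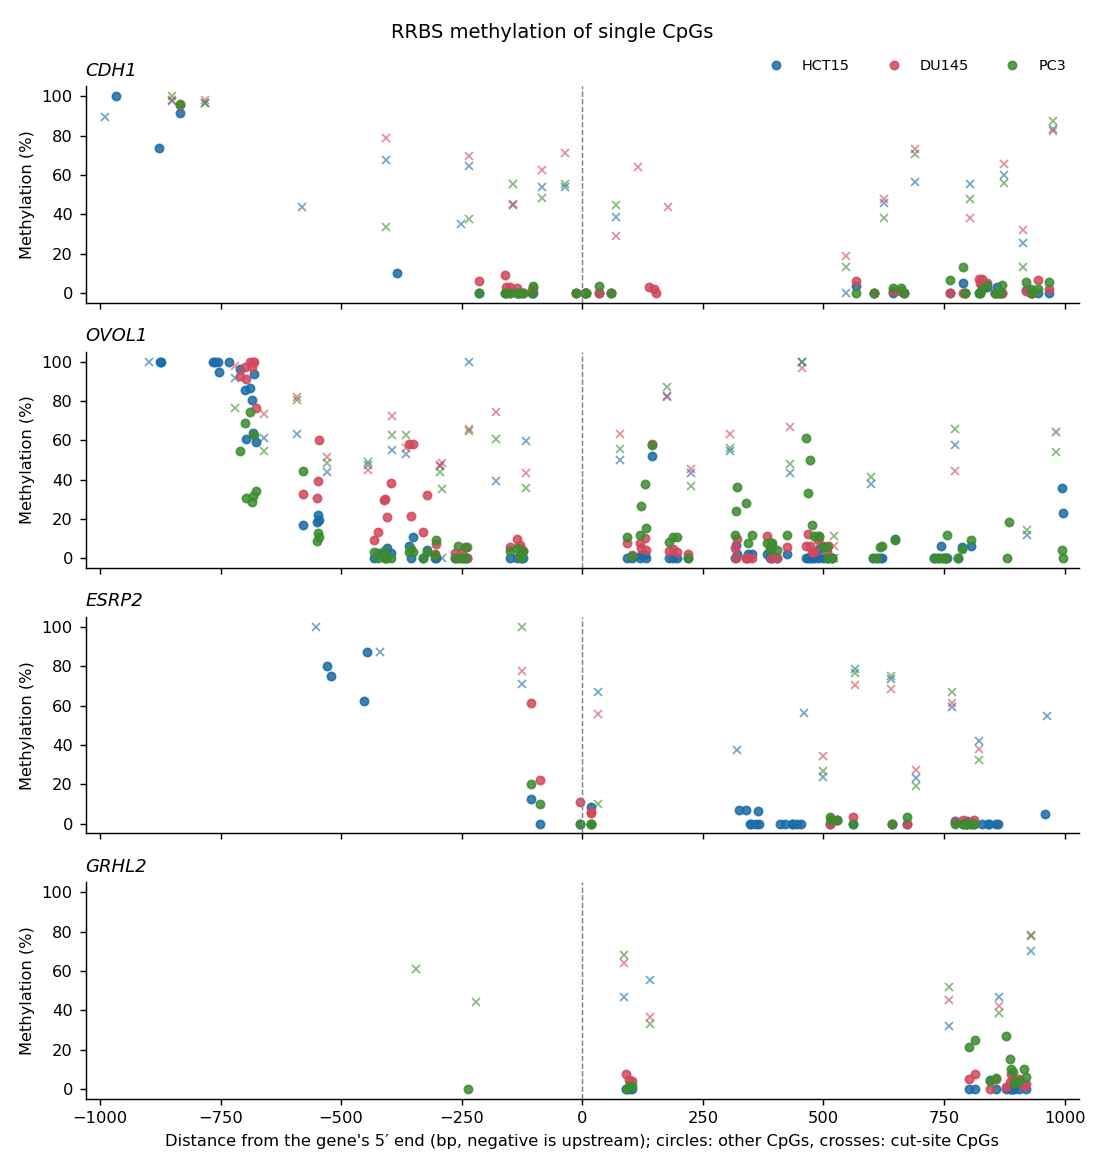
Methylation of single CpGs (vertical axis, percent of reads) by distance from the 5′ end (horizontal axis, bp) in CDH1, OVOL1, ESRP2 and GRHL2, with 1 colour per cell line and crosses for CpGs in CCGG or TCGA. Outside CCGG and TCGA, CDH1 averages 0.604% to 1.99% from -214 bp on in the 3 lines, and in OVOL1 DU145 stands above the others from -431 to -323 bp, at a mean of 29.5%.

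ZEB1, a repressor of CDH1 and of many epithelial genes (chr10:31607424, plus strand, ENSG00000148516.23_13), had means of 28.1% over the 64 CpGs of HCT15, 11.8% over 60 CpGs of DU145 and 11.1% over 70 CpGs of PC3. Without site CpGs these were 19.6%, 1.05% and 0.914%. From -118 to 612 bp all 3 lines were low, at 1.56%, 1.39% and 1.27%. From 730 to 991 bp, 18 CpGs averaged 51.6% in HCT15 (SD 12.8, 35.3% to 70.0%, median 17 reads), 0.505% in DU145 (median 22 reads) and 0.185% in PC3 (median 20 reads). All 18 were higher in HCT15 than in either other line by the Fisher test. The third printed stretch lies in this block.

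The canonical ZEB1 start is 721 bp downstream of the outermost one, at 31608145, and the rise in HCT15 began beside it. Without site CpGs and counted from the canonical start, HCT15 averaged 2.27% over 22 CpGs in the 500 bp upstream, 56.8% over 25 CpGs in the first 500 bp downstream and 98.2% over 12 CpGs in the 500 bp after that. DU145 averaged 1.76%, 1.27% and 0.431% in the same bins, and PC3 1.55%, 0.460% and 1.00%. Over the canonical window ZEB1 was 34.2 points higher in HCT15 than in DU145 (SD 36.4, 82 CpGs) and 33.4 points higher than in PC3 (SD 37.2, 85 CpGs). Around the outermost start the differences were 17.4 and 16.5 points, so ZEB1 passed the 25 points only from the canonical start or in a window of 2000 bp either side.

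ZEB2 (chr2:145278624, minus strand, ENSG00000169554.23_18), the other repressor of the family, had 0 measured CpGs within 1000 bp in any line. Its window held 1 CCGG and 0 TCGA sites. Within 2000 bp, 5 CpGs averaged 76.0% in HCT15 (SD 24.3), 49.1% in DU145 (SD 39.9, median 11 reads) and 66.7% in PC3 (SD 20.4). HCT15 was 26.9 points above DU145 (SD of the differences 33.6), past the 25 points used for calls, and 9.33 points above PC3 (SD 27.8), and DU145 minus PC3 was -17.6 points (SD 33.2). Each of these means is smaller than the SD of its differences over the 5 CpGs.

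MBD-seq gave an independent reading of the same windows. The libraries held from 10040 (DU145, MethylMagnet) to 7344098 (HCT15, MethylMiner) non-duplicate fragments of 154 to 196 bp on average, so few fragments fell on any 1 promoter. MethylMiner was left out of the tests because earlier results of these data show it near the profile of all CpGs. Over the other 4 kits, 4 of the 10 members (CDH2, CDH13, ESRP2 and OVOL1) had the 20 fragments needed for testing, as did 4875 windows of all genes. For the lines in the order HCT15, DU145 and PC3, CDH1 had 11, 3 and 5 fragments over those kits and CDH3 had 15, 1 and 1. ESRP1 had 1 in each line, GRHL2 had 1, 0 and 2, and ZEB2 had 3, 1 and 0. ZEB1 had 4, 0 and 0 around the outermost start and 14, 0 and 0 around the canonical one, from all 4 kits in HCT15, of 4864802, 893575 and 1856088 fragments in all.

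Around its outermost start, CDH2 was captured in HCT15 and DU145 by all 4 kits and hardly in PC3. In HCT15 the kits MethylMagnet, MethylCollector, MethylCollector Ultra and MethylCap gave 3, 5, 10 and 10 fragments, or 50.02, 18.8, 15.3 and 2.57 CPM (fragments per 1000000 of the library). In DU145 they gave 1, 2, 1 and 4 fragments, or 99.6, 67.5, 33.0 and 4.86 CPM, and in PC3 1, 0, 0 and 0 fragments, the first at 4.13 CPM. PC3 was the lowest line within each of the 4 kits, although its MethylMagnet value lay above the HCT15 MethylCap value, so the groups overlap across kits. Pooled over the kits, the rate in HCT15 was 10.7 times that in PC3 (28 fragments and 1 fragment, exact 95% interval 1.77 to 437, counting error only). The contrast was smaller around the canonical CDH2 start, 816 bp downstream. There HCT15 had 40 fragments, DU145 12 and PC3 4, the last from 3 of the 4 kits. The rate in HCT15 was 3.82 times that in PC3 (exact 95% interval 1.38 to 14.7).

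In edgeR's quasi-likelihood fit with kit as a block, CDH2 was 4.25 higher on the log2 scale in HCT15 than in PC3 (SE 0.88, Benjamini-Hochberg adjusted p = 3.36e-05) and 5.37 higher in DU145 than in PC3 (SE 1.08, adjusted p = 0.00027). CDH13 was 2.23 higher in HCT15 than in PC3 (SE 0.68, adjusted p = 0.00616). These are the 2 members called higher in HCT15, where 24.4% of all windows were, and the 1 called higher in DU145, where 3.02% were. Of the 4 tested members 0 were higher in PC3, against 3.34% and 0.697% of all windows, and 0 differed between HCT15 and DU145, against 1.56% and 0.472%. The median over all windows was 0.60 for HCT15 over PC3 and 0.05 for DU145 over PC3, and 0.14 and -0.50 with TMM scaling, so part of each fold depends on the scaling.

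Without the kit block CDH2 in HCT15 over PC3 had an adjusted p of 0.00839 by edgeR, CDH2 in DU145 over PC3 0.0944 and CDH13 in HCT15 over PC3 0.0875, so that 1 call of 3 was left. DESeq2 gave adjusted p values of 0.0527, 0.0532 and 0.276 for the same 3 differences. The kits were applied to DNA of the same line, so the spread is that between captures and not between cultures.

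CDH13 was captured in HCT15 with 1, 8, 10 and 14 fragments, or 16.7, 30.1, 15.3 and 3.60 CPM, in the order of kits given. PC3 had 1 fragment in each kit, or 4.13, 11.8, 1.73 and 1.05 CPM, which is lower than HCT15 within every kit. DU145 had 1, 1, 0 and 2 fragments, and its difference from PC3 was 2.06 on the log2 scale (SE 1.07, edgeR adjusted p = 0.30). By position, the summed depth of the 4 kits in PC3 averaged 1.57 from 0 to 499 bp and 0.0 from 500 to 1000 bp, while in HCT15 it was 4.99 and 5.66. In DU145, methylated throughout by RRBS, the depths were 0.528 and 0.685. The PC3 fragments thus lay where RRBS was higher in that line, but 4 fragments are too few to show a step.

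ESRP2 and OVOL1 did not pass the test between any lines. ESRP2 was 1.40 higher on the log2 scale in HCT15 than in DU145 (SE 1.12, edgeR adjusted p = 0.54), on 18 fragments against 1, and PC3 had 8 over the 4 kits. OVOL1 had 32, 4 and 15 fragments (HCT15, DU145 and PC3) and log2 differences of 0.18, 0.28 and 0.09 for HCT15 over DU145, HCT15 over PC3 and DU145 over PC3. In MethylMiner the order of CDH2 was the other way round, with 6 fragments in PC3, 4 in DU145 and 5 in HCT15, or 2.87, 1.35 and 0.681 CPM. With MethylMiner in the edgeR fit, CDH2 in HCT15 over PC3 was 1.48 on the log2 scale (adjusted p = 0.25) and 0 members were called.

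Other genes of the same pathways were taken from 5 lists. They were read only around the outermost annotated 5′ end, a choice that mattered for CDH3 and ZEB1 above. Levels around their canonical starts are not given. Of 9 mesenchymal transcription factors, 8 were measured in HCT15 and DU145 and 7 in PC3, with medians of 90.1%, 46.0% and 22.7%, against 16.8%, 16.9% and 16.1% over all promoters. Of these, 3 of 8 were higher in HCT15 than in DU145 (12.3% of all promoters), 3 of 7 higher in HCT15 than in PC3 (12.5% of all) and 1 of 7 higher in DU145 than in PC3 (4.4% of all), and 0 were called in the opposite direction of any pair. Without site CpGs 7 were measured, with medians of 91.3%, 22.2% and 9.69% against 2.20%, 2.50% and 2.51% over all promoters, and the numbers called were the same. TWIST1, a repressor of CDH1, was at 94.3% in HCT15, 85.0% in DU145 and 14.6% in PC3, the order that CDH2 showed, and its MBD-seq fragments were higher in HCT15 than in PC3 by 3.48 on the log2 scale (edgeR adjusted p = 0.00109). SNAI2, another repressor of the same gene, was at 88.1%, 28.4% and 8.14%, with a MBD-seq difference of 3.38 between HCT15 and PC3 (edgeR adjusted p = 0.0023). These were the 2 of 7 tested genes of the list called in that direction, against 24.4% of all windows. Between HCT15 and DU145, SNAI2 was 3.97 higher on the log2 scale and not called (edgeR adjusted p = 0.18).

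Of 16 other cadherin and catenin genes, 8 were measured in each line, with medians of 90.3%, 87.9% and 38.7%, and 7 in the pairs with PC3. In these pairs 4 of 7 were higher in HCT15 than in PC3 (12.5% of all promoters) and 3 of 7 higher in DU145 than in PC3 (4.4% of all), with 1 of 8 higher in HCT15 than in DU145 (12.3% of all) and 0 in the opposite direction of any pair. Without site CpGs the medians were 87.5%, 81.9% and 11.6%, and 5 of 6, 3 of 6 and 1 of 6 were called in the same pairs. CDH6 was at 92.8%, 81.9% and 18.1% and CDH22 at 84.4%, 34.7% and 21.96%. Their MBD-seq fragments were higher in HCT15 than in PC3 by 3.05 and 3.76 on the log2 scale (edgeR adjusted p = 0.0098 and 4.08e-06). In that direction 4 of the 8 tested genes of the list were called, against 24.4% of all windows. In CDH22, HCT15 exceeded DU145 by 50.7 points in RRBS and by 0.27 in log2 fragments (edgeR adjusted p = 0.88). DU145 exceeded PC3 there by 13.8 points in RRBS and by 3.49 in log2 fragments (edgeR adjusted p = 0.028).

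Of 14 mesenchymal structural and signalling genes, 12 were measured, with medians of 42.5%, 26.3% and 19.3%. In HCT15, 2 of 12 were higher than in DU145 (12.3% of all promoters) and 4 of 12 higher than in PC3 (12.5% of all), and 1 gene, TAGLN, was higher in PC3 than in both other lines (1.61% and 3.25% of all). Without site CpGs the medians were 25.9% over 8 genes, 6.80% over 9 and 3.11% over 10. On that reading 3 of 8 and 4 of 8 were higher in HCT15 than in DU145 and PC3, against 13.7% and 13.8% of all promoters. Higher in PC3 were 0 of 8 against HCT15 and 1 of 9 against DU145 (1.75% and 3.74% of all). FN1, the gene of fibronectin, was at 95.9%, 28.0% and 19.4%, and TAGLN, which encodes an actin-binding protein of smooth muscle, at 34.8%, 45.9% and 85.5%. TAGLN rested on 6, 9 and 9 CpGs, too few for a level without site CpGs in any line. Its MBD-seq log2 differences were -0.50 for HCT15 over PC3 and -1.04 for DU145 over PC3. Neither was called (edgeR adjusted p = 0.61 and 0.67).

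In the epithelial lists the medians over all CpGs lay within 5 points of those of all promoters. Of 23 junction and keratin genes, 20 were measured, with medians of 19.8%, 19.1% and 20.5%. In HCT15, 1 of 20 was higher than in DU145 and 1 higher than in PC3 (12.3% and 12.5% of all promoters). In the same line 2 were lower than in each (1.56% and 1.61% of all), and 1 was higher in DU145 than in PC3 (4.4% of all). Without site CpGs 1 of 18 was higher in HCT15 than in DU145 and 2 were lower (13.7% and 1.57% of all). Between HCT15 and PC3, 1 of 17 was higher in HCT15 and 0 were lower (13.8% and 1.75%), and 0 of 16 differed between DU145 and PC3 (5.05% and 3.74%). Without site CpGs the medians were 1.52%, 3.17% and 5.52% over 19, 18 and 19 genes, against the 2.20%, 2.50% and 2.51% of all promoters. Around the outermost 5′ ends, TJP1, which encodes a tight junction scaffold, was at 96.9%, 41.9% and 24.5%, and RAB25, an epithelial trafficking gene, at 21.996%, 77.0% and 63.5%. The MBD-seq fragments of TJP1 were 1.36 and 1.23 higher on the log2 scale in HCT15 than in DU145 and PC3. Neither was called (edgeR adjusted p = 0.57 and 0.23). Of 9 epithelial transcription factors, 5 were measured in HCT15 and DU145 and 4 in PC3, with medians of 15.5%, 13.6% and 17.8%, or 2.66%, 4.46% and 8.72% over 4 genes without site CpGs. Among the 4 compared in each pair only HNF4A was called, in all 3 pairs. It was lower in HCT15 than in DU145 and PC3 (1.56% and 1.61% of all promoters). It was higher in DU145 than in PC3 (4.4% of all). Around its outermost 5′ end HNF4A, a factor of liver and gut epithelium, was at 19.6% in HCT15, 95.9% in DU145 and 65.7% in PC3.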

How the data were processed

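The files hold 3 RRBS libraries and 15 MBD-seq libraries of 3 cell lines. The RRBS files deposited by the authors give 2 read counts for every CpG, methylated and total, with strands summed and at least 6 reads. The aligner and enzymes are not given in the sources used here. For MBD-seq the authors deposited the depth (coverage signal) of unique, non-duplicate fragments mapped with Bowtie to hg19, per the submitters' processing notes, without scaling to the library.

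CpGs with at least 10 reads were used (2195724 in HCT15, 2398973 in DU145 and 2377143 in PC3, median 23, 33 and 26 reads), and a promoter needed 5 of them. PC3 has no CpGs on 1 chromosome, which carries no member. Genes came from GENCODE v44lift37 on GRCh37. Fragments per window were the depth at its first base plus all rises inside it, which counts a fragment ending and another starting at the same base pair too low. Fisher's exact tests ran in Python 3.11.15 (scipy 1.17.1, pandas 2.3.3). Fragments were tested with edgeR 4.0.16 in R 4.3.3 on 12 libraries, with library size as the total of fragments and kit as a block, since each kit number marks the same kit in every line. Deviations of the same kit correlated at -0.0124 to 0.438 between lines and those of different kits at -0.377 to 0.175. Alternatives were other coverage, windows, starts, scalings, DESeq2 1.42.0, no block, no filter on fragments, MethylMiner included and each kit left out.

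Members and lists were chosen with earlier results of these data known. The text names all members, and the genes with the largest differences past 25 points of each list, up to 2. Tested on simulated data, the CpG test of HCT15 and PC3 recovered 88.6% of the CpGs changed by 50 points, which were a part of 447478 CpGs. The fragment test of that pair recovered 28.9% of the windows changed 8-fold, and that of DU145 and PC3 8.89%. The changed windows were a part of 4222 simulated windows. Recovery by the fragment test of HCT15 and DU145 was not tested. Intervals cover counting error only.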

Additional observations from a re-analysis of the deposited data

Results flagged for a closer look

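Among the 4 tested kits within a cell line, 2 libraries passed Dixon's criterion. A group with 1 fragment in 1 kit and 0 in the others always passes it, so neither library is read as an outlier. For CDH2 in PC3, MethylMagnet gave 4.13 CPM (1 fragment) and the other kits 0. For ESRP2 in DU145, MethylCap gave 1.21 CPM (1 fragment) and the other kits 0.

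MethylMiner was left out of the main fragment test. Over some member windows it gave more fragments than a uniform spread of its library over the genome. In these windows the lower end of the exact 95% Poisson interval lay above 1. All members were examined in all lines, and only the windows that passed this rule are listed. The share of all promoter windows that pass it is not given. Whether the excess is particular to these genes was not tested. For OVOL1 the ratio was 3.38 in HCT15 (19 fragments, 2.04 to 5.28), 4.01 in DU145 (9 fragments, 1.83 to 7.62) and 3.11 in PC3 (5 fragments, 1.01 to 7.27). For ESRP1 it was 3.03 in HCT15 (17 fragments, 1.76 to 4.85), 4.01 in DU145 (9 fragments, 1.83 to 7.62) and 4.36 in PC3 (7 fragments, 1.75 to 8.98). For CDH1 it was 2.32 in HCT15 (13 fragments, 1.23 to 3.96) and 3.12 in DU145 (7 fragments, 1.25 to 6.43). In PC3, CDH2 and GRHL2 had 6 fragments each and a ratio of 3.74 (1.37 to 8.13). The ESRP1 window was at 0.644% to 4.03% methylation by RRBS without site CpGs. Over the 1 Mb around each start the MethylMiner ratio was 2.25, 2.50 and 2.75 for OVOL1 and 1.19, 1.17 and 1.86 for ESRP1 in HCT15, DU145 and PC3. The part of this wider density in the window values was not tested.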

How the results depend on the processing

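The differences of CDH2 from PC3 by RRBS were called under all alternatives run, and those of CDH13 under all except the window of 500 bp either side. Changes of settings moved these counts of members. High in HCT15 were 5 within 2000 bp. Low in HCT15 were 1 within 2000 bp and 4 without site CpGs. Low in DU145 were 1 within 2000 bp, 1 from canonical starts and 5 without site CpGs. High in PC3 were 2 within 2000 bp and 0 at 20 reads, from canonical starts, over CpGs covered in all 3 lines, or without site CpGs. Low in PC3 were 6 without site CpGs. Higher in HCT15 than in DU145 were 2 within 2000 bp (ZEB1 and ZEB2) and 1 from canonical starts (ZEB1). Higher than in PC3 within 500 bp was 1, CDH2, for both other lines.

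CpGs called by Fisher's test numbered, for HCT15 over DU145, 8 at 20 reads, 4 within 500 bp, 65 within 2000 bp and 42 from canonical starts, and for HCT15 over PC3 40, 31 and 142 in the first 3 of these. Within 500 bp they numbered 15 for DU145 over HCT15, 13 for PC3 over HCT15, 59 for DU145 over PC3 and 4 for PC3 over DU145.

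By MBD-seq, the members called higher in HCT15 than in PC3 were 1 with TMM, 1 within 500 bp and 1 with no replicate block, CDH2 each time, and 0 with DESeq2 or with MethylMiner. With 1 kit left out they ranged from 1 to 2, the 1 without MethylCollector Ultra. Those higher in DU145 than in PC3 were 0 with DESeq2, with no replicate block or with MethylMiner, and 0 to 1 with 1 kit left out, the 0 without MethylCap. Over all windows, HCT15 over PC3 had 1189 calls against 163 the other way, 532 against 200 with TMM, 138 against 103 with DESeq2 and 741 against 55 without the block. DU145 over PC3 had 147 against 34, and 26 against 52, 7 against 84 and 8 against 0.

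Log2 differences that changed sign were all uncalled. With 1 kit left out, HCT15 over DU145 ranged from -0.31 to 0.54 for CDH13 and from -1.24 to 0.57 for OVOL1, HCT15 over PC3 from -0.00436 to 0.0293 for ESRP2 and from -0.26 to 0.54 for OVOL1, and DU145 over PC3 from -0.25 to 0.98 for OVOL1. OVOL1 in HCT15 over DU145 was -0.0188 without the block and -0.14 with MethylMiner. ESRP2 in HCT15 over PC3 was -0.27 with TMM, -0.0195 with DESeq2, -0.0148 within 500 bp and -0.21 within 2000 bp. OVOL1 in that pair was -0.31 with TMM, -0.50 with DESeq2 and -0.38 without the block, and in DU145 over PC3 -0.73, -1.01 and -0.36. ESRP2 in DU145 over PC3 was 0.22 with MethylMiner. The cause was not tested. The limits are 1 RRBS library per line, few fragments per window, and CpGs that share reads.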

Other observations

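The density of MBD-seq fragments over the 1 Mb around each member differed more between genes than between lines. In MethylCap, the ratio to a uniform spread was 4.36 in HCT15, 4.02 in DU145 and 5.02 in PC3 around OVOL1, and 0.208, 0.351 and 0.430 around ZEB2. Around ESRP2 it was 3.28, 2.82 and 2.15 and around CDH1 2.63, 2.09 and 1.65. Around CDH2 it was 0.207, 0.250 and 0.409, with PC3 the highest of the 3 lines, while over the CDH2 promoter itself PC3 had 0 MethylCap fragments. Around GRHL2 it was 0.816, 0.871 and 1.72, and around ESRP1 1.11, 1.16 and 2.17. The copy number of these regions was not measured here.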
